A study of Drosophila melanogaster with 24 samples.

Results

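The genes described here are the 6 salivary glue protein genes that the array carried, Sgs1, Sgs3, Sgs4, Sgs5, Sgs7 and Sgs8. The set was chosen with earlier results of these data known. Its probes were found by symbol alone, and they stood on 6 of 14444 probes analysed, or 6 of 12068 named genes. Glue proteins are secreted mucin-like and small proteins that the larval salivary gland makes in the last larval instar and stores in granules. At the end of larval life the glue is expelled and fixes the prepupa to a surface. In textbook accounts, the steroid hormone ecdysone first switches these genes on as a group, and the pulse at puparium formation then shuts them off within hours, so that white prepupae are taken while the glue transcripts are disappearing. Sgs3, Sgs7 and Sgs8 lie side by side in 1 glue puff on chromosome 3L and Sgs4 forms a glue puff of its own on the X chromosome.

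Animals of 3 genotypes of Drosophila melanogaster were profiled on 2-colour long oligonucleotide arrays. The su(Hw)/Df animals, the null, lacked Su(Hw), a zinc finger protein of chromatin insulators, and carried the null allele su(Hw)v with the casX/K transgene over the deletion Df(3R)ED5644. The su(Hw)/+ animals carried su(Hw)v with casX/K over an Oregon R chromosome, and the Df/+ animals carried Df(3R)ED5644 over an Oregon R chromosome, so that each heterozygote had 1 of the chromosomes of the null. The reference on every array was a pool of wild-type RNA, for larvae from 18 collections, and there was 1 pool per tissue. Whole larvae were collected as soft white prepupae, 10 or 20 to a tube, and wing imaginal discs were dissected from animals of the same stage. There were 4 arrays per genotype and tissue, which the methods call independent biological replicates, 24 arrays in all, and the dyes were swapped on 2 of each 4. All values below are log2 ratios of a genotype to the pool, so that 0 is the level of the pool, and they give no level of 1 gene relative to another. RNA of whole animals cannot tell a gland with fewer cells from a gland with less RNA per cell.

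As a check of the labels, su(Hw) itself lay between -3.36 and -2.19 in su(Hw)/Df larvae, against -0.86 to -0.28 in su(Hw)/+ larvae and -0.53 to -0.068 in Df/+ larvae. The larval arrays held 9110 to 11673 of the probes with a value and had medians between -0.13 and 0.27, and no pair of them correlated above 0.77, so none was a repeat of another. The wing disc arrays held 4972 to 11157 probes. All 6 glue probes had a value on all 12 larval arrays.

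The probes were not equally specific. The probes of Sgs1, Sgs4 and Sgs5 were annotated with 1 gene each. The 3 other probes listed 2 or 3 genes of the 3L puff, but each had a single transcript accession, of Sgs3, Sgs7 or Sgs8. They are therefore called Sgs3c, Sgs7c and Sgs8c, with c for cluster, and which of the 3 genes each of them measured cannot be told apart. In the Release 6 gene table Sgs4 lay on the X chromosome, Sgs1 on 2L, the cluster of Sgs3, Sgs7 and Sgs8 on 3L and Sgs5 on 3R, the arm that also carries su(Hw) and the deletion. Only 2 protein-coding genes, Sgs7 and CG33272, lay between Sgs8 and Sgs3.

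Relative to the wild-type pool, Sgs4 and Sgs5 were lower in su(Hw)/Df larvae, by 4.52-fold and 2.91-fold, whereas Sgs1 and the 3 probes of the 3L puff did not pass the test. Differences between the probes are described further on and were not tested. Of the 6 probes 2 were lower and 0 higher, in a comparison in which 27.7% of 9554 probes were called, 13.2% lower and 14.5% higher, so that the share of glue probes called is near the background. The median of the 6 changes was -0.087 and that of all probes 0.034. Tests were limma fits over all probes with Benjamini-Hochberg adjusted p-values, called under 0.05. The pool is a single RNA, so its own spread does not enter any comparison with it.

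Sgs4 encodes a large repetitive glue protein and has long been used to study dosage compensation of the X chromosome. Its log2 ratios in su(Hw)/Df larvae were -2.14, -1.05, -1.35 and -4.16, against -1.39, -0.78, -0.51 and -1.66 in su(Hw)/+ larvae and 0.068, -1.96, -0.34 and -0.72 in Df/+ larvae. All 4 null arrays and all 4 su(Hw)/+ arrays lay below the pool, as did 3 of 4 Df/+ arrays, and the genotypes overlapped. The mean was -2.18 ± 1.40 in the null, against -1.09 ± 0.53 in su(Hw)/+ animals and -0.74 ± 0.87 in Df/+ animals (SD, n = 4 each). The limma change against the pool was -2.18 (SE 0.42, adjusted p = 0.00258) in the null, -1.09 (SE 0.42, adjusted p = 0.0694) in su(Hw)/+ animals and -0.74 (SE 0.42, adjusted p = 0.233) in Df/+ animals.

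Sgs5 encodes a small glue protein. Its log2 ratios were -1.18, -0.65, -1.13 and -3.20 in su(Hw)/Df larvae, against -0.74, -0.076, -0.44 and -0.56 in su(Hw)/+ larvae and -0.36, -1.54, -0.94 and -0.58 in Df/+ larvae. Every one of these 12 arrays lay below the pool, and again a single null array was far lower than the other 3. The change against the pool was -1.54 (SE 0.32, limma adjusted p = 0.00364) in the null, -0.45 (SE 0.32, limma adjusted p = 0.301) in su(Hw)/+ animals and -0.86 (SE 0.32, limma adjusted p = 0.0722) in Df/+ animals. The lower values of Sgs4 and Sgs5 in the null remained past the threshold under all 21 alternative settings, with limma adjusted p-values of at most 0.0200 for Sgs4 and 0.0333 for Sgs5.

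**Figure D1:**
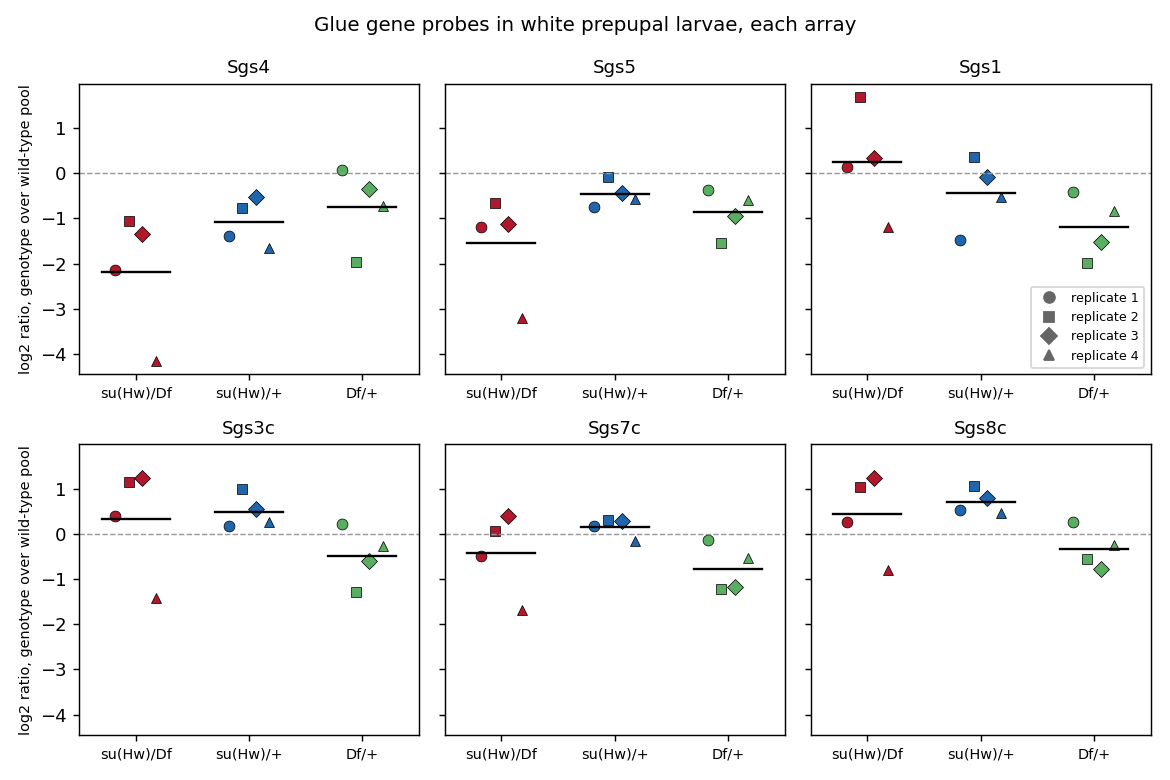
Log2 ratio to the wild-type pool (vertical axis) of the 6 glue probes in larvae, from left to right for the null (su(Hw)/Df) and for su(Hw)/+ and Df/+ animals; each point is 1 array with its replicate number as the symbol, bars are means of 4 arrays and the dashed line is the pool. Sgs4 and Sgs5 lie below the pool on all 4 null arrays (-1.05 or lower for Sgs4, -0.65 or lower for Sgs5), and replicate 4 of the null is the lowest null array in every panel.

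Sgs1 encodes a large glue mucin. Its log2 ratios were 0.14, 1.70, 0.35 and -1.19 in su(Hw)/Df larvae, against -1.48, 0.36, -0.081 and -0.52 in su(Hw)/+ larvae and -0.42, -1.99, -1.51 and -0.84 in Df/+ larvae. The Df/+ arrays all lay below the pool, and the null arrays lay on both sides of it. Sgs1 was lower than the pool in Df/+ larvae by 2.28-fold (-1.19, SE 0.39, limma adjusted p = 0.0452), and its change was 0.25 (SE 0.39, limma adjusted p = 0.670) in su(Hw)/Df and -0.43 (SE 0.39, limma adjusted p = 0.424) in su(Hw)/+. It was the only glue probe of 6 called in Df/+ larvae, where 19.7% of 9699 probes were called and 10.3% were called lower. The call lay close to the threshold and was lost when replicate 2, 3 or 4 of Df/+, replicate 1 or 3 of su(Hw)/Df or replicate 3 or 4 of su(Hw)/+ was left out, without moderation of the variances, or with a minimum of 2 values per genotype, with adjusted p-values of 0.0218 to 0.164 over the 21 alternatives.

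The genes of the 3L puff encode the mucin-like Sgs3 and the short proteins Sgs7 and Sgs8. The Sgs3c probe had log2 ratios of 0.41, 1.15, 1.24 and -1.42 in su(Hw)/Df larvae, against 0.18, 0.99, 0.55 and 0.26 in su(Hw)/+ larvae and 0.21, -1.29, -0.60 and -0.26 in Df/+ larvae. For Sgs7c the ratios were -0.49, 0.068, 0.41 and -1.68 in su(Hw)/Df larvae, against 0.17, 0.32, 0.29 and -0.16 in su(Hw)/+ larvae and -0.12, -1.23, -1.18 and -0.53 in Df/+ larvae. For Sgs8c they were 0.28, 1.06, 1.24 and -0.80 in su(Hw)/Df larvae, against 0.53, 1.06, 0.80 and 0.46 in su(Hw)/+ larvae and 0.26, -0.55, -0.77 and -0.24 in Df/+ larvae. On all 3 probes replicate 4 of the null was the lowest null array. On Sgs7c replicate 1 of the null also lay below every su(Hw)/+ array. The Df/+ arrays lay mostly below the pool. None of the 3 passed the test against the pool in any genotype, with adjusted p-values from 0.0636 (Sgs8c in su(Hw)/+, change 0.71, SE 0.27) to 0.697 (Sgs7c in su(Hw)/+, change 0.16, SE 0.27).

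In su(Hw)/+ larvae 0 of 6 glue probes were called against the pool by limma, where 28.3% of 8907 probes were. At an unadjusted p under 0.05, 2 of the 6 passed, Sgs4 and Sgs8c, which lay on opposite sides of the pool. Of all 8907 probes 3671 passed that level. The median change of the 6 probes was -0.14 in su(Hw)/+ larvae, where that of all probes was 0.076, and -0.75 in Df/+ larvae, where that of all probes was -0.019. In Df/+ larvae all 6 changes were below 0, and 5 of them did not pass the test.

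**Figure D2:**
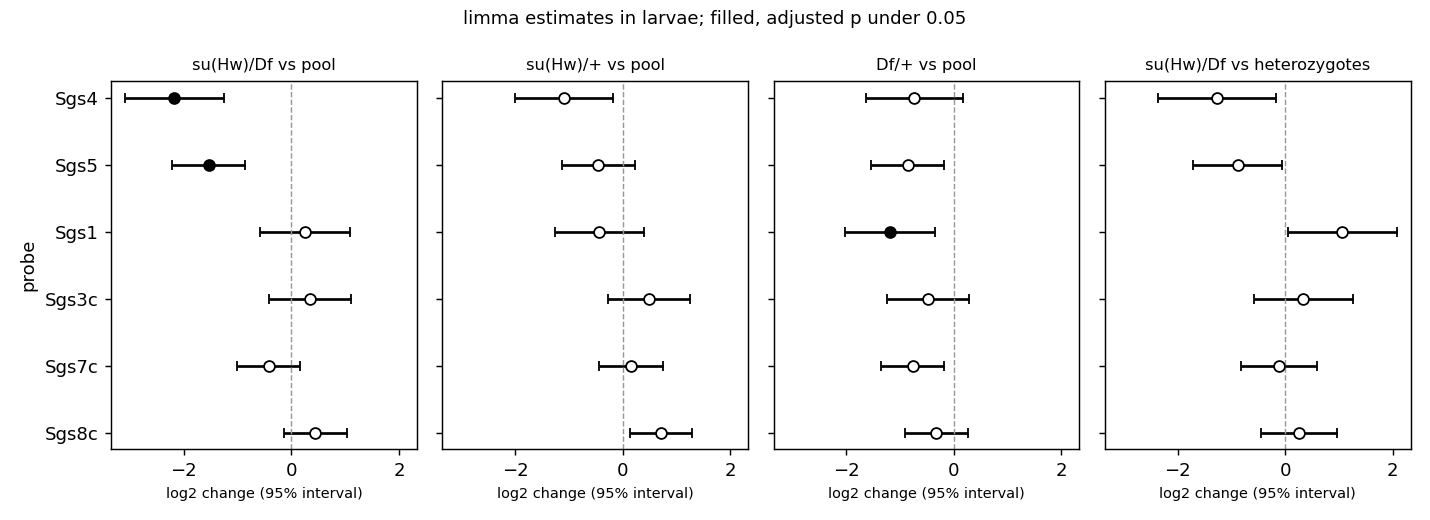
Log2 change of the 6 glue probes (rows) in larvae with 95% confidence intervals from limma (horizontal axis), from left to right for su(Hw)/Df, su(Hw)/+ and Df/+ against the wild-type pool and for su(Hw)/Df against the mean of both heterozygotes. Filled points passed an adjusted p of 0.05, namely Sgs4 (-2.18) and Sgs5 (-1.54) in the null and Sgs1 (-1.19) in Df/+.

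The heterozygotes each carry 1 of the mutant chromosomes of the null over Oregon R. Against the mean of both heterozygotes 0 of 6 glue probes were called in su(Hw)/Df larvae by limma, in a comparison that called 2.84% of 8197 probes. At an unadjusted p under 0.05, 3 of the 6 passed, as did 1328 of all 8197 probes. Of these 3, Sgs4 was lower by 1.27 on the log2 scale (95% interval -2.37 to -0.16, limma adjusted p = 0.236). Sgs5 was also lower (-0.89, interval -1.71 to -0.059, limma adjusted p = 0.271) and Sgs1 higher (1.06, interval 0.049 to 2.07, limma adjusted p = 0.284). The 3 probes of the 3L puff differed by 0.34 (Sgs3c, interval -0.58 to 1.26), -0.12 (Sgs7c, interval -0.83 to 0.59) and 0.25 (Sgs8c, interval -0.45 to 0.95). All 3 intervals include 0 and also increases of 0.59 or more. The median of the 6 differences was 0.066, that of all probes 0.016. The 4 null arrays overlapped the 8 heterozygote arrays on all 6 glue probes, whereas 3.80% of the 6423 probes with 12 values did not overlap.

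Each pair of genotypes was also compared on its own. Against su(Hw)/+ alone 0 of 6 glue probes were called in the null, where 1.98% of all probes were called. At an unadjusted p under 0.05, 1 passed (Sgs5, -1.09, limma adjusted p = 0.266), as did 1221 of all 8431 probes. Against Df/+ alone the count called was also 0 of 6, where 1.91% were called. At an unadjusted p under 0.05, 2 passed (Sgs4, -1.44, limma adjusted p = 0.274, and Sgs1, 1.44, limma adjusted p = 0.225), as did 1318 of all 8887 probes. Between Df/+ and su(Hw)/+ larvae 0 of 6 were called by limma, where 0.272% of all probes were. Sgs7c (-0.92, limma adjusted p = 0.385) and Sgs8c (-1.04, limma adjusted p = 0.325) passed an unadjusted p of 0.05, as did 944 of all 8464 probes. On the 3 probes of the 3L puff the order of the means was therefore su(Hw)/+ highest, su(Hw)/Df next and Df/+ lowest, with no neighbours in this order told apart after adjustment. For Sgs3c and Sgs8c the order rested on 1 array. Without replicate 4 of the null, their null means were 0.93 and 0.86, against 0.49 and 0.71 in su(Hw)/+ larvae. Sgs7c kept its order without that array, with means of 0.16 (su(Hw)/+), -0.0050 (null) and -0.77 (Df/+).

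Arrays of 1 genotype differed widely on the glue probes. The residual SD within genotypes was 1.00 for Sgs4, 0.91 for Sgs1, 0.83 for Sgs3c, 0.74 for Sgs5, 0.62 for Sgs7c and 0.62 for Sgs8c, against a median of 0.33 over 8197 probes. Between 93.2% (Sgs8c) and 99.2% (Sgs4) of all probes had a smaller SD. The highest and the lowest of the 4 null arrays differed by 8.60-fold for Sgs4, by 7.38-fold for Sgs1 and by 4.12-fold for Sgs8c. In su(Hw)/+ larvae the same ratio ran from 1.39-fold for Sgs7c to 3.58-fold for Sgs1.

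The probes varied together. The deviations from the genotype means correlated with r of 0.75 (Sgs1 with Sgs7c) to 0.97 (Sgs7c with Sgs8c) over the 15 pairs of glue probes and 12 larval arrays, and the 12 points share their arrays, RNA and dye. Replicate 4 of the null was the lowest null array on all 6 probes, with a mean of -2.07 over the 6, and replicate 2 was the highest on Sgs1, Sgs4 and Sgs5, with a mean over the 6 of 0.38. Replicate 2 of Df/+ was the lowest Df/+ array on 5 of 6 probes (mean -1.42), and replicate 1 the highest on all 6 (mean -0.060). The null arrays with the highest and the lowest mean, replicates 2 and 4, had the genotype in the same dye, Cy5. Over all probes the larval array medians averaged 0.14 with the genotype in Cy3 and -0.076 with it in Cy5 (n = 6 each). The exact time of each collection within the white prepupal stage is not given in the sources used here, and its part in the spread of the glue probes was not tested.

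**Figure D3:**
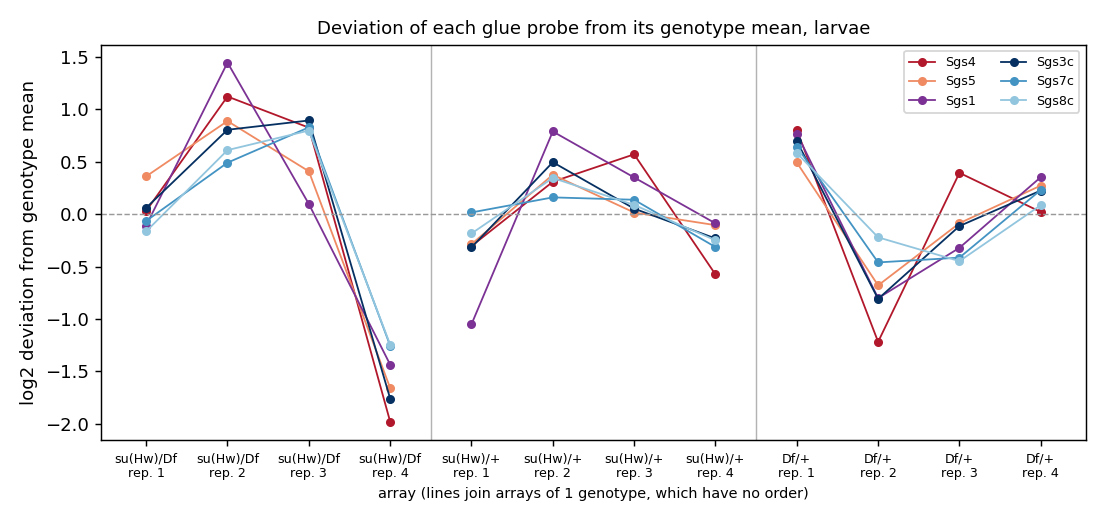
Log2 deviation of each glue probe from the mean of its genotype (vertical axis) on the 12 larval arrays (horizontal axis), 1 colour per probe; lines join the 4 arrays of a genotype. The 6 probes move together, and replicate 4 of the null lies below its genotype mean on all of them.

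Since 1 null array was low throughout, the comparisons were repeated without it. Without replicate 4, Sgs4 (-1.52, limma adjusted p = 0.00631) and Sgs5 (-0.99, limma adjusted p = 0.00481) were still lower in su(Hw)/Df larvae than in the pool. In this fit Sgs3c (0.93, limma adjusted p = 0.0183) and Sgs8c (0.86, limma adjusted p = 0.0124) became higher than the pool, so that 4 of 6 probes were called, with both directions among them, where 28.0% of 8578 probes were called. Against the heterozygotes the count stayed at 0 of 6, with Sgs4 at -0.60, Sgs5 at -0.33, Sgs1 at 1.54 (limma adjusted p = 0.0762), Sgs3c at 0.93, Sgs7c at 0.30 and Sgs8c at 0.67. Against Df/+ alone Sgs3c (1.42, limma adjusted p = 0.0443) and Sgs8c (1.18, limma adjusted p = 0.0465) were then called higher in the null, where 2.82% of 8196 probes were called.

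Differences between 2 glue probes on the same array are given as a description without a test. They remove only what both probes share in equal size, and the spread between arrays was not equal among the 6. The Sgs4 ratio minus the Sgs3c ratio was -2.52 ± 0.23 in the null, against -1.58 ± 0.38 in su(Hw)/+ animals and -0.25 ± 0.40 in Df/+ animals (SD, n = 4 each). The null arrays lay between -2.74 and -2.20, the su(Hw)/+ arrays between -1.92 and -1.06 and the Df/+ arrays between -0.66 and 0.26, so that the 3 genotypes did not overlap. The genotypes were less separate against the other probes of the 3L puff. Against Sgs8c the Sgs4 difference was -3.36 to -2.11 on the null arrays, -2.12 to -1.31 in su(Hw)/+ larvae and -1.41 to 0.43 in Df/+ larvae, so that the null overlapped su(Hw)/+. Against Sgs7c it was -2.48 to -1.12 on the null arrays, -1.56 to -0.81 in su(Hw)/+ larvae and -0.73 to 0.84 in Df/+ larvae, again with overlap. The lowest null value in both was that of replicate 4.

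The difference between Sgs5 and Sgs3c had the same order, with -1.88 ± 0.34 in the null, against -0.95 ± 0.10 in su(Hw)/+ animals and -0.37 ± 0.14 in Df/+ animals (SD, n = 4 each). Against Sgs8c the Sgs5 difference was -1.98 ± 0.47 in the null, against -1.16 ± 0.11 in su(Hw)/+ animals and -0.53 ± 0.36 in Df/+ animals (SD, n = 4 each). Against Sgs7c it was -1.54 to -0.69 on the null arrays, -0.91 to -0.39 in su(Hw)/+ larvae and -0.31 to 0.24 in Df/+ larvae, and the null overlapped su(Hw)/+. All 3 genotypes lay apart in 3 of the 15 pairs of glue probes (Sgs4 with Sgs3c, and Sgs5 with Sgs3c or Sgs8c), and in 0.434% of all pairs of probes with 12 values. In 6 of the 15 the null arrays did not overlap the 8 heterozygote arrays, as in 3.95% of all pairs. The 15 pairs share their 6 probes and are not independent. The glue probes also varied together within genotypes (r of 0.75 to 0.97), which narrows their differences. Pairs of all probes were not chosen for this, so their shares are not a like background and no excess is read from them. A further 2 of the 6 pairs in which the null did not overlap the heterozygotes set Sgs1 against Sgs4 or Sgs5. The Sgs4 ratio minus the Sgs1 ratio was -2.43 ± 0.56 in the null, against -0.65 ± 0.60 in su(Hw)/+ animals and 0.45 ± 0.52 in Df/+ animals (SD, n = 4 each). The last was the difference between Sgs7c and Sgs8c, at -0.87 ± 0.092 in the null, against -0.56 ± 0.16 in su(Hw)/+ animals and -0.44 ± 0.17 in Df/+ animals (SD, n = 4 each).

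The difference between Sgs4 and Sgs5 was -0.64 ± 0.38 in the null, against -0.63 ± 0.42 in su(Hw)/+ animals and 0.12 ± 0.48 in Df/+ animals (SD, n = 4 each), and the genotypes overlapped. A difference of this kind shows unequal change of 2 probes and not which of them changed.

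**Figure D4:**
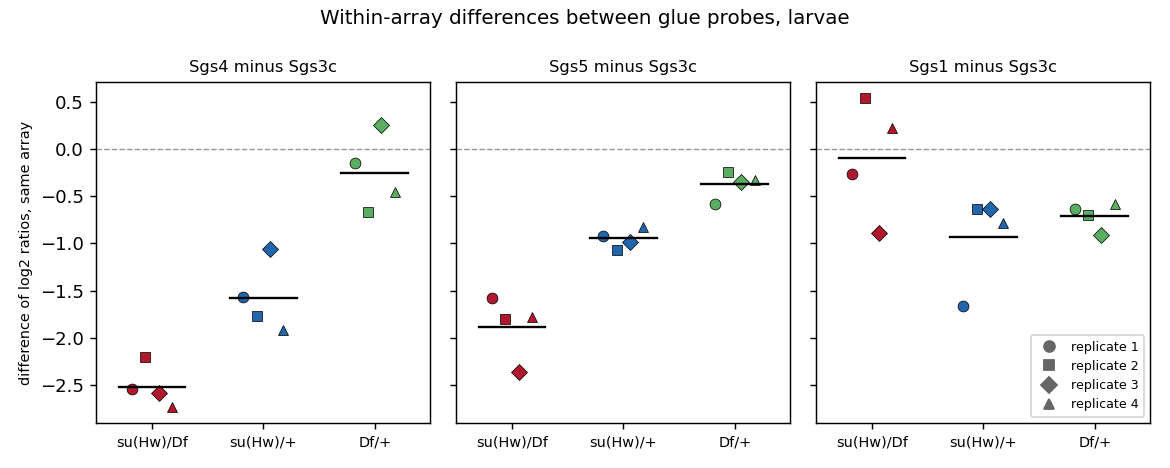
Difference between the log2 ratios of 2 glue probes on the same larval array (vertical axis) by genotype; points are arrays, bars means of 4, symbols replicates. The Sgs4 and Sgs5 differences from Sgs3c do not overlap between genotypes (null arrays at -2.20 or lower for Sgs4, Df/+ arrays at -0.66 or higher), while those of Sgs1 overlap.

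Sgs4 and Sgs5 do not lie together, so their neighbours were counted separately. Of the 10 protein-coding genes on each side of Sgs4, 11 were tested against the pool in su(Hw)/Df larvae. Of these 3 were lower and 0 higher, where 13.2% of all probes were lower and 14.5% higher. Those 3, named after their values were seen, were CG3939, CG16782 and Pig1. At an unadjusted p under 0.05, 7 of the 11 passed, as did 3848 of all 9554 probes. In su(Hw)/+ larvae 3 of 10 were lower and 0 higher, where 28.3% of all probes were called in either direction. In Df/+ larvae 4 of 11 were lower and 0 higher, where 10.3% of all probes were lower. Pig1 and CG16782 were called in all 3 genotypes. Around Sgs5, 10 were tested against the pool in su(Hw)/Df larvae, and 0 were lower and 2 higher, where 14.5% of all probes were higher. These were P5cr-2 and AttD, likewise named after their values were seen. P5cr-2 was also called higher in Df/+ larvae (2 of 10 higher, 0 lower) and was called in su(Hw)/+ larvae (1 of 9 higher, 1 lower). Against the heterozygotes 0 of 9 neighbours of Sgs4 and 0 of 7 neighbours of Sgs5 were called by limma, with 2 of each at an unadjusted p under 0.05. Of all 8197 probes in that comparison 2.84% were called, and 1328 passed the unadjusted level.

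Pig1, a gene expressed in the gland before the glue genes, is the direct neighbour of Sgs4 and was 1 of the 6 genes tested against the pool of a list of 11 other salivary gland genes. It was lower than the pool in all 3 genotypes, with a change of -2.55 (SE 0.31, limma adjusted p = 0.000118) in the null, -1.10 (SE 0.36, limma adjusted p = 0.0375) in su(Hw)/+ animals and -1.52 (SE 0.31, limma adjusted p = 0.00592) in Df/+ animals, the su(Hw)/+ value resting on 3 arrays. Its difference from the heterozygotes was -1.24 (SE 0.39, limma adjusted p = 0.116). Sgs5bis, the neighbour and close relative of Sgs5, had ratios of -1.96 to 0.68 in su(Hw)/Df, -1.34 to -0.21 in su(Hw)/+ and -1.04 to -0.015 in Df/+ and was not called in any genotype. The gland regulators fork head (fkh, -0.30, SE 0.18) and sage (-0.46, SE 0.32) did not pass the test in su(Hw)/Df larvae against the pool. Changes of the opposite sign, also not called, were those of ng2 (0.62, SE 0.22, limma adjusted p = 0.0849) and ng3 (0.70, SE 0.27, limma adjusted p = 0.0878). The ng2 value rested on 3 arrays. Of the salivary gland list 1 of 6 genes was thus called lower in the null against the pool, where 13.2% of all probes were, and 0 higher. At an unadjusted p under 0.05, 3 of the 6 passed against the pool, as did 3848 of all 9554 probes. Against the heterozygotes 0 of 3 were called by limma, where 2.84% of all probes were. At an unadjusted p under 0.05, 1 of the 3 (Pig1) passed, as did 1328 of all 8197 probes.

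The Eig71E late puff genes were set beside the glue genes. In textbook accounts ecdysone induces genes of this puff in the prepupal salivary gland as the glue genes are shut off. This need not hold for every member of the list. Of 9 Eig71E genes with a probe 7 were tested in the null, and 3 were lower than the pool, as were 13.2% of all probes, and 0 higher. Eig71Eh had a change of -2.92 (SE 0.31, limma adjusted p = 2.82e-05) and Eig71Ei one of -2.63 (SE 0.21, limma adjusted p = 2.93e-06), and Eig71Eg was also lower (-0.90, limma adjusted p = 0.0162). Eig71Eh (-1.90, SE 0.37, limma adjusted p = 0.0145) and Eig71Ei (-1.58, SE 0.26, limma adjusted p = 0.00408) were also lower than in the heterozygotes, where 1.76% of all probes were called lower. The list median was -0.69 against the pool and -0.19 against the heterozygotes.

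Of 9 regulators of the ecdysone response tested against the heterozygotes 0 were called by limma, and 0 passed an unadjusted p of 0.05. Of all 8197 probes in that comparison 2.84% were called, and 1328 passed the unadjusted level. Against the pool, where 14.5% of all probes were called higher, 3 of 10 were higher in su(Hw)/Df larvae and 0 lower, namely the nuclear receptor genes Eip78C (0.97, SE 0.11, limma adjusted p = 5.14e-05), usp (0.47, SE 0.15, limma adjusted p = 0.0296) and Hr78 (0.28, SE 0.098, limma adjusted p = 0.0470). Ecdysone-induced effector genes were higher than the pool in 2 of 6 (ImpL1, 1.86, and ImpL2, 0.79), and of the genes of ecdysone synthesis 1 of 3 was higher (sad, 1.02). Against the heterozygotes limma called 0 of 6 effector genes, with 2 at an unadjusted p under 0.05, and 0 of 3 synthesis genes, with 0 at that level.

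Markers of 2 other organs of the whole larva were counted in the same fits, in which 13.2% of all probes were lower and 14.5% higher than the pool, and 1.76% lower and 1.09% higher than the heterozygotes. The 3 fat body storage genes tested were all higher than the pool in the null (Lsp2 1.20, Fbp2 0.89, Fbp1 0.54). Against the heterozygotes 0 of 3 were called, with 1 at an unadjusted p under 0.05, a level that 1328 of all 8197 probes passed. Of 18 midgut digestive genes 10 were lower than the pool and 3 higher, and 8 were lower than the heterozygotes and 1 higher, among them LysX (-2.50), epsilonTry (-1.42), Jon65Aiv (-1.33) and LysB (2.00). Their part in the glue gene values was not tested.

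The 6 genes most like the mean of the glue probes over the 12 larval arrays, of probes with 1 symbol and 12 values, were CG15308 (r = 0.96), acs (0.93), CG6126 (0.92), Eig71Ee (0.90), CG14332 (0.89) and CG17571 (0.88). The 12 arrays share the pool and the 3 genotypes. Of these Eig71Ee was also on the Eig71E list above, and the time at which it is expressed was not tested. Eig71Ee ranged from -2.14 to 0.076 in su(Hw)/Df larvae, from -1.06 to -0.23 in su(Hw)/+ larvae and from -1.44 to -0.067 in Df/+ larvae. CG15308 had a mean of -0.63 ± 1.17 in the null, against -0.13 ± 0.57 in su(Hw)/+ animals and -0.86 ± 0.58 in Df/+ animals (SD, n = 4 each).

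Wing discs do not make glue. The disc arrays gave a value for these genes only slightly less often than for all probes. Of the 72 possible values of 6 probes on 12 disc arrays 37 were present, or 51.4%, where 58.2% of all probes had a value on average. Against the heterozygotes no glue probe had the 3 values per genotype that a test needed. Against the wing disc pool 3 were tested in su(Hw)/Df discs and 0 were called by limma, where 0.873% of 7218 probes were called. At an unadjusted p under 0.05 also 0 of the 3 passed, where 545 of the 7218 probes did.

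Most disc values lay near the pool, but on single arrays several glue probes lay far above it together. In su(Hw)/Df discs, replicate 2 had Sgs3c at 2.91, Sgs7c at 2.87, Sgs8c at 1.82 and Sgs5 at 1.03. In su(Hw)/+ discs, replicate 3 had Sgs7c at 3.81, Sgs8c at 2.82, Sgs3c at 2.31, Sgs4 at 1.82 and Sgs5 at 1.71. In Df/+ discs, replicate 3 had Sgs4 at 2.72 and Sgs7c at 2.57. Each genotype thus had 1 array with several high glue values. Of all probes 34.4% had a value on that array of su(Hw)/Df, the fewest of the 12 disc arrays. The share was 56.0% on that of su(Hw)/+ and 54.1% on that of Df/+, where the disc arrays averaged 58.2%. On the other arrays the values lay between -0.45 and 0.69, apart from Sgs3c at 1.36 on replicate 2 of su(Hw)/+. Of the 37 disc values 8 were the same to the last digit as those of 1 to 26 other probes on the array, the most shared being the -0.31 of both Sgs4 and Sgs1 on replicate 4 of su(Hw)/Df, and spot signals were not used here. Whether the discs of the high arrays carried salivary gland tissue, or whether the share of probes with a value played a part, was not tested.

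**Figure D5:**
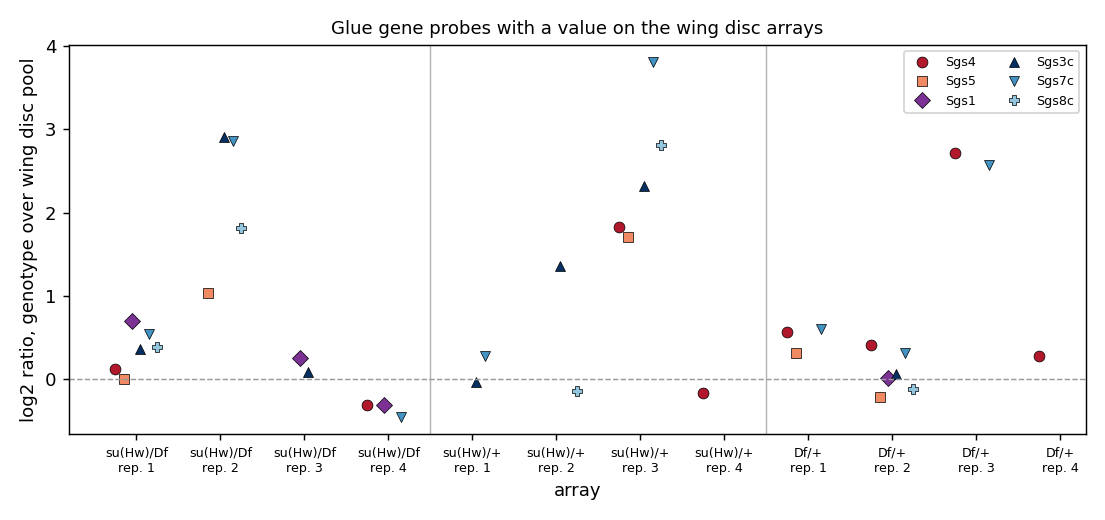
Log2 ratio to the wing disc pool (vertical axis) of every glue probe with a value on the 12 wing disc arrays (horizontal axis). High values (above 1) stand together on replicate 2 of su(Hw)/Df, replicate 3 of su(Hw)/+ and replicate 3 of Df/+, with Sgs7c at 3.81 the highest.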

How the data were processed

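The authors hybridised RNA to FL002 (INDAC) long oligonucleotide arrays, directly labelled for larvae and amplified for wing discs, scanned them on an Axon scanner, found spots with Dapple and normalised with VSN. The authors deposited 1 log2 ratio of genotype to pool per spot and array, with the dye swaps already turned and spots that failed their filter left empty. That the direction is genotype over pool was checked on su(Hw), and base 2 on the study's list of fold changes. For these tools no version was given in the sources used here. Without spot signals the brightness behind a ratio is unknown, and the number of arrays limits the precision.

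Of 15158 probes in 17258 spots, 714 printed in 3 or 4 spots were taken as controls and left out, and 14444 were analysed. Of these 12532 had 1 gene symbol in the platform annotation, 96 had several and 1816 had none, and 12491 were matched to a Release 6 gene table used only for current names and gene order. For each tissue, 1 linear model of the 3 genotypes was fitted to the log2 ratios with limma 3.58.1 under R 4.3.3, and variances were moderated by empirical Bayes. Probes entered a comparison with 3 or more values in every genotype it involved, with Benjamini-Hochberg adjustment over all probes tested and a threshold of 0.05. The fit was tested on simulated data. Descriptions used Python 3.11.15 with pandas 2.3.3 and numpy 2.4.6. The members and the gene lists (other salivary gland, late puff, ecdysone regulator, ecdysone-induced effector, ecdysone synthesis, fat body storage and midgut digestive genes) were chosen with earlier results of these data known. The text names the 6 glue probes, up to 4 list members per direction past the threshold with the largest change, su(Hw), and the 6 probes most correlated with the mean of the glue probes. Alternatives were recentring, a dye term, the replicate number as a block, array weights, robust or no moderation, other minima of values, fewer genotypes in the fit, and leaving out each array.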

Additional observations from a re-analysis of the deposited data

Results flagged for a closer look

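Sgs4 on replicate 3 of Df/+ wing discs lay far from the other 3 arrays of its group, at a log2 ratio of 2.72. The gap to the nearest was 0.881 of the whole range of the group, above Dixon's 95% critical value for 4 samples. Of 19 groups of 4 arrays examined 1 was marked in this way, and chance marks about 1 in 20. Sgs7c in Df/+ animals had opposite signs in both tissues, below the pool on all 4 larval arrays and above it on all 3 wing disc arrays with a value. The larval mean minus the disc mean was -1.93, and this difference was not tested.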

How the results depend on the processing

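In su(Hw)/Df larvae against the pool, the count of glue probes called was 2 with every alternative other than leaving out an array, and 2 to 4 when 1 array was left out, the 4 coming without replicate 4 of the null. In su(Hw)/+ larvae against the pool the count of 0 became 1 (Sgs4) after recentring each array, with a dye term, or with the replicate number as a block, and 2 (Sgs4 and Sgs8c) with array weights or only su(Hw)/+ arrays in the fit. It was 0 to 2 when 1 array was left out, with 1 without replicate 3 and 2 without replicate 4 of su(Hw)/Df. In Df/+ larvae against the pool the count of 1 became 2 (Sgs1 and Sgs7c) after recentring or with a dye term, 3 (Sgs1, Sgs5 and Sgs7c) with array weights or only Df/+ arrays, and 0 without moderation or with at least 2 values per genotype. It was 0 to 3 when 1 array was left out, with 3 without replicate 4 of su(Hw)/Df. The null against Df/+ gave 0 to 2, the 2 again without replicate 4 of the null. The counts of 0 against the heterozygotes, against su(Hw)/+, between the heterozygotes and in wing discs against the pool did not change under any alternative run. In wing discs against the heterozygotes there was no value to vary. The causes of these changes were not tested, apart from the arrays left out.

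No single change of a glue probe turned its sign outside the fits with an array left out. In those fits 6 signs turned, all of changes that were not called. Against the heterozygotes Sgs8c ranged from -0.015 to 0.67 and Sgs7c from -0.39 to 0.30, Sgs1 against the pool in the null from -0.23 to 0.73, and against su(Hw)/+ Sgs3c ranged from -0.45 to 0.44 and Sgs8c from -0.53 to 0.15. Replicate numbers were not taken to pair samples. The deviations of same-numbered larval arrays correlated with r of -0.028 to 0.54, over 0.1 in 10 of 12 pairs and not in all, the median of 0.21 was below the 0.25 of other-numbered arrays of the same dye, and 6 of 12 arrays correlated best with their own number. The replicate block changed no other call than that of Sgs4 in su(Hw)/+ (adjusted p = 0.0431).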
